A study of Mus musculus with 9 samples.

Results

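The genes described here encode the machinery that brings proteins into mitochondria, folds them there and degrades them. They were the rows of the count table whose symbol starts with Timm or Tomm and a digit, together with Hspd1, Hspe1, Hspa9, Trap1, Grpel1, Dnaja3, Lonp1, Clpp, Clpx, Clpb, Afg3l2, Yme1l1, Spg7, Pmpca, Pmpcb, Phb and Phb2, without pseudogene symbols. The rule found 43 of 24756 rows, and 40 of them were among the 10215 genes with enough counts to be tested. Of the others, Timm8a2 and Tomm20l had 1 count each over the 9 libraries, and Tomm6os, an antisense RNA beside Tomm6 that the symbol pattern also caught, had 6 counts over 4 libraries.

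The libraries came from a mouse acute myeloid leukaemia line made from foetal liver cells with a pair of retroviral vectors, and were read by 3' mRNA sequencing. All groups carried MSCV-Luc2-IRES-MLL-AF9, which makes the MLL-AF9 fusion protein at all times, and TRE-tight-DsRED-IRES-FLT3-ITD, which makes the mutant receptor kinase FLT3-ITD only in the presence of doxycycline. ON cells were kept in 1 µg/mL doxycycline, and OFF cells were washed and grown without it for 24 h (OFF24) or 48 h (OFF48), with 3 libraries in each group. The washes were thus made in the OFF groups only, as far as the protocols say, and they and the loss of the drug cannot be told apart from the loss of FLT3-ITD. The labels name 1 line and are silent on whether replicates were separate cultures, so every p-value rests on a spread between libraries that may be technical.

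Nearly all mitochondrial proteins are made in the cytosol and enter through the translocase of the outer membrane (TOM). The translocases of the inner membrane (TIM) then pass them on, TIM23 into the matrix with the help of an Hsp70 motor, and TIM22, fed by small chaperones of the intermembrane space, into the inner membrane. In the matrix the presequence is cut off, the chaperonin of Hsp60 and Hsp10 folds the protein, and ATP-dependent proteases remove what fails to fold.

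Library totals ran from 1329296 counts (OFF48 replicate 2) to 4038456 (ON replicate 2), and 3 counts, the upper limit where 0 are seen, corresponded to 0.737 to 2.25 CPM (counts scaled to library size), for counting error only. Mouse Flt3 had 2 to 10 counts per library, and since a transcript of the vector does not end in the mouse gene, that row does not check the transgene. All 10 myeloid markers had counts, and their summed level was 3222 to 3470 CPM in ON, 4825 to 5264 in OFF24 and 5665 to 6625 in OFF48. Most of that rise was of Mpo (mean 69.1 CPM in ON and 759 in OFF48), Prtn3 (711 and 1741) and Elane (379 and 1015). Itgam, Spi1, Cebpa and Meis1 also rose at 48 h, while Ptprc, Ctsg and Hoxa9 were not called there (log2 0.05, -0.07 and 0.07). Lymphoid markers summed to 0.255 to 3.34 CPM, with Ncr1 at 0. Erythroid markers, nearly all of them Tfrc, summed to 87.4 to 92.7, 79.4 to 97.8 and 110.2 to 125 CPM, with Hbb-bt, Hbb-bs and Epor at 0. Megakaryocyte, mast cell and basophil markers, mostly Gp1bb, summed to 75.8 to 89.9, 67.3 to 75.6 and 85.2 to 97.7 CPM, with Cpa3 and Fcer1a at 0. Hepatocyte and stromal markers, mostly Pecam1, which myeloid cells also carry, summed to 26.8 to 36.2, 45.6 to 60 and 55 to 63.9 CPM, with Alb, Ttr and Cdh5 at 0. The part of these shifts in the results was not tested, and in bulk RNA fewer cells of a kind and less RNA per cell cannot be told apart.

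The first question was how this machinery stood 24 h after doxycycline was washed out. Of the 40 tested genes 26 fell and 0 rose, where 17.4% of all tested genes fell and 17.8% rose. Their median log2 fold change was -0.46, against 0.03 for all tested genes. All 3 OFF24 libraries lay below all 3 ON libraries for 30 of the 40 genes and above them for 0, where 23.8% and 25.1% of all tested genes did so. A fall of at least 2-fold was called for 8 genes, against 4.33% of all tested genes. Those 8 were Hspd1, Hspa9, Timm10, Timm23, Timm8a1, Timm9, Tomm40 and Tomm5.

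At 48 h the count was higher. There, 31 of the 40 genes fell and 0 rose, against 23.9% and 23.4% of all tested genes, with a median of -0.77 against 0.01. Groups did not overlap for 31 genes that were lower and for 1 that was higher, Timm10b, against 27% and 25.6% of all tested genes. The falls reached 2-fold for 15 genes, against 8.82% overall. The 15 comprised all of the 24 h list except Tomm5, and in addition Afg3l2, Clpb, Dnaja3, Hspe1, Lonp1, Phb, Timm17a and Tomm20.

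The direct comparison of the OFF groups showed which levels went on moving between 24 and 48 h. It called 11 falls and 2 rises, against 11.2% and 9.99% of all tested genes, with a median of -0.27 against 0.00, and Hspe1 was the only member to fall 2-fold, as 3.99% of all tested genes did. OFF48 lay wholly below OFF24 for 15 members and wholly above for 1, Timm29, against 19.8% and 18.2%. Leaving out a library moved the count of falls to 7 (without OFF24 replicate 2), 6 (without OFF24 replicate 3) and 7 (without OFF48 replicate 3). Falls over all tested genes in these fits are not given here, so whether members lost calls more than other genes is not shown. The 8 genes that fell at both times and again between them were Afg3l2, Hspe1, Hspd1, Hspa9, Lonp1, Trap1, Tomm20 and Tomm6. A further 16 fell at both times with no call between them, among them Timm23, Tomm40, Timm8a1 and both prohibitins. Shares of all tested genes with these joint patterns are not given here, so the 8 and the 16 are a description. For a fall at both times alone, shares over tested genes with a promoter window are given below. The calls between the times of Hspa9, Trap1 and Tomm6 were each lost without at least 1 library. The comparisons with ON share the ON libraries, so their counts are not independent of each other.

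**Figure D1:**
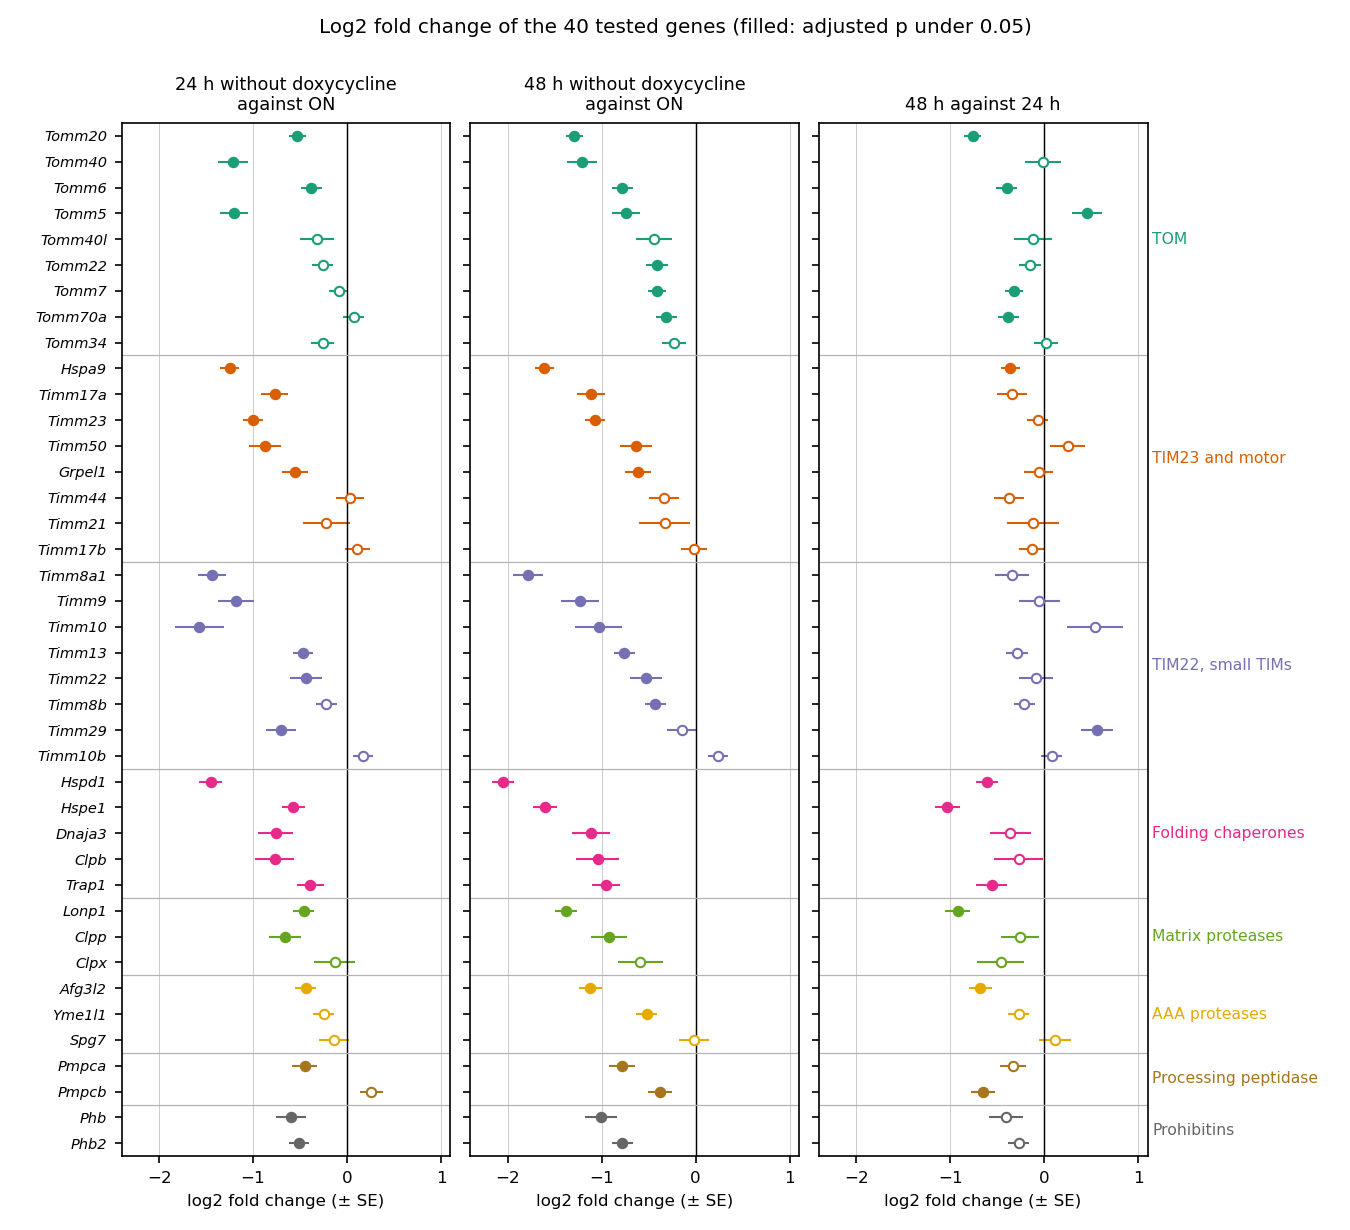
Log2 fold change (x axis, with the standard error as bars) of each of the 40 tested genes (rows, coloured by role) at 24 h and 48 h against ON and between 48 h and 24 h; filled points have an adjusted p under 0.05. The 26 filled points at 24 h and the 31 at 48 h all lie left of 0, while the comparison of the OFF groups has 11 filled points left of 0 and 2 right of it.

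Over all 43 genes the summed level was 4804, 4648 and 4825 CPM in ON, 3272, 3221 and 3335 in OFF24, and 2686, 2456 and 2498 in OFF48. The 3 groups were thus separate in every library, at 4759 ± 96.9, 3276 ± 57 and 2546 ± 123 CPM (mean ± SD, n = 3), or 68.8% and 53.5% of ON. Hspd1 was a large part of this sum, and without it the levels were 74.2% and 58.4% of ON. By role, the sum of the folding chaperones was lowest relative to ON, at 46.3% and 28.3%, and that of the processing peptidase highest, at 99.8% and 68.3%. Most of the folding chaperone sum was Hspd1 (mean 683 of 996 CPM in ON), which stood at 36.7% of ON at 24 h. The other genes of that role stood at 57.3% (Clpb) to 75.9% (Trap1) of ON then, above the 56.8% of the TIM23 sum. The lowest place of the role at 24 h thus rested on Hspd1.

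**Figure D2:**
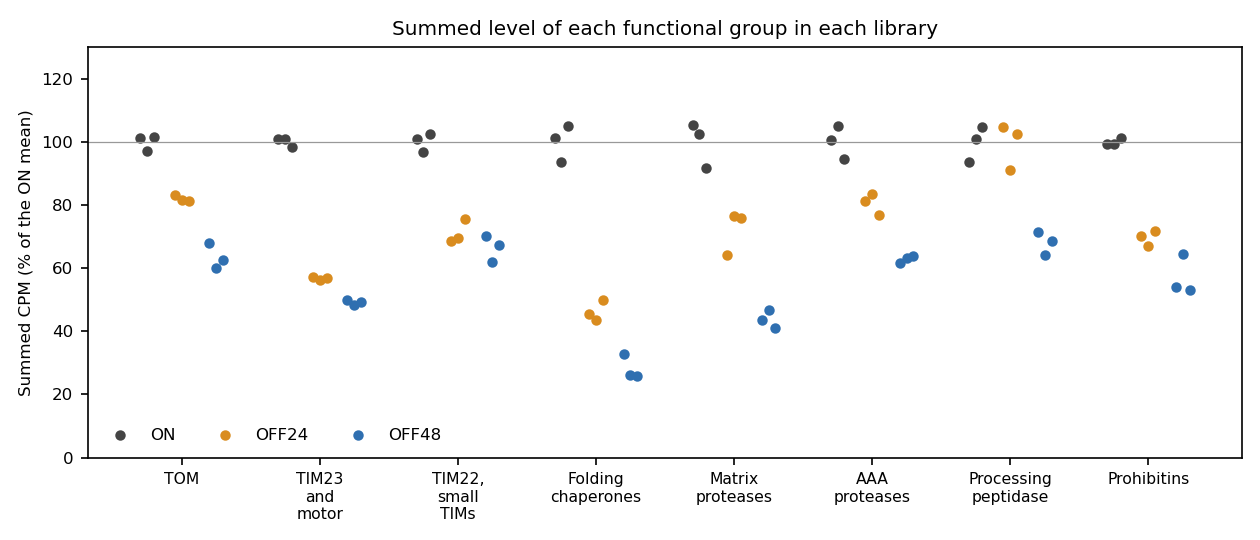
Summed CPM of the genes of each role in each of the 9 libraries (points), as a percentage of the mean of the 3 ON libraries (y axis, line at 100). The folding chaperones, whose sum is mostly Hspd1, average 46.3% in OFF24 and 28.3% in OFF48, and the processing peptidase 99.8% and 68.3%.

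The RefSeq promoter table (GRCm38.p6) held windows, from 250 bases before to 50 after a start, for 38 of the 43 genes, with 41 windows in all; Hspa9, Timm21, Tomm40l, Tomm7 and Afg3l2 had none. They were searched on both strands for CACGTG (the E-box of MYC and related factors), CCGGAAG (the core of ETS family sites), GCGCANGC (NRF1), CCAAT (NF-Y) and TGATGNAA (ATF4 composite sites), and matches of different motifs did not overlap in these windows. CCGGAAG was in 46.3% of the 41 windows, against 8.86% of all 32851 windows and 19.7% of the 10239 windows of tested genes. CACGTG was in 22%, against 7.15% and 10.4%. GCGCANGC was in 24.4% (9.95% and 20.9%), CCAAT in 31.7% (37.4% and 38.5%) and TGATGNAA in 0% (3.97% and 2.29%). The 41 windows include those of the untested Timm8a2, Tomm20l and Tomm6os, so they are not a subset of the windows of tested genes. Timm8a2 holds CCGGAAG, Tomm20l holds CACGTG and CCAAT, and Tomm6os holds CACGTG and GCGCANGC. These are matches of letters, not sites shown to be bound, and the absence of a match says only that these letters are not in the window.

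Of the 35 tested genes with a window, 7 had CACGTG, namely Hspd1, Lonp1, Phb, Timm10, Timm8a1, Timm9 and Tomm20, and all 7 fell at both times. Without it, 16 of 28 did (57.1%). Over all tested genes with a window the shares were 17.9% of 996 with CACGTG and 13% of 7022 without. For CCGGAAG, 9 of the 17 holders (52.9%) and 14 of the 18 others (77.8%) fell at both times, against 15.4% of 1856 and 13% of 6162 over all tested genes. These counts are small and are given as a description.

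Hspe1 and Hspd1 lie head to head on chromosome 1, and the Hspe1 window shares 285 bases with one of the Hspd1 windows. That shared Hspd1 window holds CCGGAAG and no CACGTG; the Hspd1 window printed is the other one (chr1:55088194-55088493), which holds CACGTG. The windows below are examples of members that fell at both times and hold these motifs, with Tomm70a, which was not called at 24 h, as a contrast that holds CCGGAAG and no CACGTG. Each is written 5′ to 3′ on the strand of its gene, and capitals mark CACGTG and CCGGAAG in either orientation. In Hspe1 and in Timm10 a CTTCCGGAAG run is a pair of CCGGAAG matches, one on each strand, that overlap. CACGTG starts at position -80 from the start in Hspd1, -36 in Lonp1, 28 in Timm10, and -58 and -1 in Timm9.
Hspe1 (chr1:55087898-55088197, plus strand): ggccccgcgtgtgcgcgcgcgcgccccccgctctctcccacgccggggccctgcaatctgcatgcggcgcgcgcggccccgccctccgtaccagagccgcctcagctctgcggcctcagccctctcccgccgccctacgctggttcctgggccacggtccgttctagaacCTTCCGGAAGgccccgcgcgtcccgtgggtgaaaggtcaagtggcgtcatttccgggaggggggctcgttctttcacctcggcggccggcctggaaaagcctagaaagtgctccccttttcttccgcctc
Hspd1 (chr1:55088194-55088493, minus strand): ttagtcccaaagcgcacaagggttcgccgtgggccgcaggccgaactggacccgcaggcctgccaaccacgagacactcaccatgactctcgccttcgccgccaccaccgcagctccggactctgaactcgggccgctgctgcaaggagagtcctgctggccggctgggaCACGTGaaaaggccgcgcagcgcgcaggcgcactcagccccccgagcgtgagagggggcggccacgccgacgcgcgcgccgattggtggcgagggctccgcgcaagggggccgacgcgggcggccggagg
Lonp1 (chr17:56626854-56627153, minus strand): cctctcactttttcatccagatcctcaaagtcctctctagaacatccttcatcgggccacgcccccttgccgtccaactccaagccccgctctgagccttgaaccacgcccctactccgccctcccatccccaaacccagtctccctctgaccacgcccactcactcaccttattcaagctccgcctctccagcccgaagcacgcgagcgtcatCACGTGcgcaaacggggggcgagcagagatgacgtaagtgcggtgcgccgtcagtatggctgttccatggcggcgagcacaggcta
Timm10 (chr2:84826771-84827070, plus strand): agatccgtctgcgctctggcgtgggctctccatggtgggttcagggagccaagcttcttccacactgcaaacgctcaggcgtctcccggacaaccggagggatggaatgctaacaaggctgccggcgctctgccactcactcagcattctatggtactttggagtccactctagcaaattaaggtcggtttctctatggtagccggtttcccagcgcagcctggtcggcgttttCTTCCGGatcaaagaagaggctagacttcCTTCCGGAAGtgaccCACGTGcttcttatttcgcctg
Timm9 (chr12:71136626-71136925, minus strand): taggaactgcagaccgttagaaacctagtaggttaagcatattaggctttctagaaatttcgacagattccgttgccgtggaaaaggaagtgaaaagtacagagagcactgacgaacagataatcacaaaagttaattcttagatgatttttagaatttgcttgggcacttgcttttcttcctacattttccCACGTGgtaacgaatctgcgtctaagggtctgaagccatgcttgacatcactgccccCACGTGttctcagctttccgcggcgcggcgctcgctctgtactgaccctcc
Tomm70a (chr16:57121464-57121763, plus strand): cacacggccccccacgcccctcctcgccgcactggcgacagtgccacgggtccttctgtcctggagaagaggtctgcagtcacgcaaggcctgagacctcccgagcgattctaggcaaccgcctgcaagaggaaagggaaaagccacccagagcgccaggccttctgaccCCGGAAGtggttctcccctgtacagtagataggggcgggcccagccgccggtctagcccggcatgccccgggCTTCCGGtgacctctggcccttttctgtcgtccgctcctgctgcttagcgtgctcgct

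In the outer membrane, 4 of the 9 tested TOM genes fell at 24 h and 7 at 48 h, against 17.4% and 23.9% of all tested genes. Tomm20, the receptor that first binds presequences (chromosome 8, 126930667 to 126945844, minus strand; GENCODE M21 on GRCm38, as for all positions), stood at 421, 413 and 425 CPM in ON, 295, 289 and 285 in OFF24, and 171, 169 and 173 in OFF48. Its groups were separate, with a range of a few percent within each. Log2 fold changes were -0.53 ± 0.09 (SE) at 24 h (edgeR quasi-likelihood adjusted p = 0.000143), -1.29 ± 0.09 at 48 h (adjusted p = 1.71e-09) and -0.76 ± 0.09 between (adjusted p = 8.4e-06). Tomm40 (chromosome 7, 19701313 to 19715438, minus strand), the channel itself, stood at 37.7, 35.6 and 41.5 CPM, then 14.2, 17.3 and 17.6, then 18.8, 15.7 and 14.6. It had reached its lower level by 24 h, where the OFF groups overlapped (log2 -1.21 ± 0.16 at both times; edgeR adjusted p = 9.3e-06 and 5.95e-06; 48 h against 24 h -0.01 ± 0.19, adjusted p = 0.985).

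Tomm5, a small subunit that stabilises the channel, stood at 78, 80.6 and 70.5 CPM in ON, 40.6, 28.3 and 31.9 in OFF24, and 38.2, 43.5 and 54.2 in OFF48. It fell at both times (log2 -1.20 ± 0.15 and -0.74 ± 0.15, edgeR adjusted p = 5.11e-06 and 0.000361), and rose from 24 to 48 h by 0.46 ± 0.16 (edgeR adjusted p = 0.0479), though these OFF libraries overlapped. That rise was lost without any of 5 libraries, ON replicate 1 or 3, OFF24 replicate 2 or 3, or OFF48 replicate 3 (adjusted p = 0.0521 to 0.267), and under 5 other settings. The Tomm5 row has the same counts in every library as the row of its pseudogene Gm8069, so the reads of these loci were not separated.

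Tomm70a, the receptor for carrier proteins delivered by cytosolic chaperones, followed another course. Its levels were 289, 244 and 290.2 CPM in ON, 298, 276 and 288 in OFF24, and 255, 211 and 196 in OFF48. ON and OFF24 overlapped, and OFF48 lay below OFF24 (log2 0.07 ± 0.11 at 24 h, edgeR adjusted p = 0.675; -0.31 ± 0.11 at 48 h, adjusted p = 0.0296; between, -0.38 ± 0.11, adjusted p = 0.0222). The 48 h fall was lost without ON replicate 1 or 3, or OFF48 replicate 2 or 3 (adjusted p = 0.0673 to 0.152), and the fall between the times without any OFF24 library or OFF48 replicate 2 or 3 (0.0574 to 0.131). The 48 h fall was also lost in a fit of only the groups compared, and the fall between the times with counts thinned to the shallowest library.

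Of the remaining TOM genes, Tomm6, another small subunit, fell at 24 h (log2 -0.38), at 48 h (-0.78) and between (-0.40), the last call being lost without OFF24 replicate 2 or 3 or OFF48 replicate 3 (edgeR adjusted p = 0.073 to 0.0922). Tomm7 fell at 48 h (-0.41) and between the times (-0.32), which was lost without any OFF24 library, ON replicate 1, or OFF48 replicate 2 or 3 (edgeR adjusted p = 0.0573 to 0.136). Tomm22, the central receptor, fell at 48 h (-0.41). At 24 h its libraries also lay below ON (-0.26, edgeR adjusted p = 0.0858; 0.0409 without OFF48 replicate 2, 0.0388 in a fit of only the groups compared and 0.048 with the replicate number as a block), and the times did not differ past the threshold (-0.15, adjusted p = 0.419). Tomm40l, a Tomm40-like protein, had log2 values of -0.32 and -0.44, and Tomm34, a cytosolic co-chaperone despite its name, -0.26 and -0.23, with no call in any of the 3 comparisons. Without ON replicate 2, Tomm34 passed at both times (-0.37 and -0.33, edgeR adjusted p = 0.0339 and 0.0472).

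In the TIM23 translocase and its motor, 5 of 8 genes fell at each time, against 17.4% of all tested genes at 24 h and 23.9% at 48 h. Hspa9, the mitochondrial Hsp70 that pulls proteins inward, stood at 299, 299 and 299.5 CPM in ON, 131, 118 and 128 in OFF24, and 99.3, 96 and 97.4 in OFF48. The 3 groups were far apart relative to their spread, with log2 -1.25 ± 0.10 at 24 h (edgeR adjusted p = 1.52e-08) and -1.61 ± 0.10 at 48 h (adjusted p = 2.02e-10). The further fall of 0.36 on the log2 scale (SE 0.10, edgeR adjusted p = 0.0139) was lost without OFF24 replicate 1 or 3 (adjusted p = 0.0696 to 0.0769). Grpel1, its nucleotide exchange factor, fell by 0.55 and 0.61.

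Timm23 (chromosome 14, 32180162 to 32201898, minus strand), the channel, stood at 151, 158 and 143 CPM in ON, 74, 76.6 and 75.7 in OFF24, and 80.2, 65.2 and 68.8 in OFF48. Like Tomm40, it was at its lower level at 24 h, and the OFF groups overlapped (50% and 47.3% of the ON mean, edgeR adjusted p = 9.35e-07 and 1.86e-07; log2 -1.07 ± 0.11 at 48 h and, between, -0.07 ± 0.11, adjusted p = 0.725). Timm50, the receptor of this translocase, fell by 0.87 ± 0.17 at 24 h and 0.63 ± 0.17 at 48 h on the log2 scale (edgeR adjusted p = 0.000575 and 0.00542). Timm44, which tethers the motor (0.03 and -0.34), and Timm21 (-0.22 and -0.33) were not called. For Timm44 the fall at 48 h did pass without ON replicate 2 (log2 -0.48, edgeR adjusted p = 0.0124; -0.48 to -0.18 over the libraries left out) and with the replicate number as a block (-0.36, adjusted p = 0.0418), as did its fall between the times with the block (-0.40, adjusted p = 0.0474).

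The alternative subunits Timm17a and Timm17b, each of which forms TIM23 complexes, differed. Timm17a (chromosome 1, 135295213 to 135313778, minus strand) stood at 58.7, 59 and 50.1 CPM in ON, 35.5, 27 and 36.3 in OFF24, and 24.8, 30.7 and 24.5 in OFF48. It fell at both times (log2 -0.77 ± 0.14 and -1.11 ± 0.15, edgeR adjusted p = 0.000341 and 6.77e-06). Timm17b (chromosome X, 7899357 to 7908351, plus strand) stood at 42.1, 52.6 and 56.5, then 52.7, 59.6 and 50, then 51, 53.2 and 45.8 CPM, with overlap between all groups (0.11 ± 0.13 and -0.02 ± 0.14, edgeR adjusted p = 0.55 and 0.927). The ratio of their counts was 1.39, 1.12 and 0.886 in ON, 0.675, 0.453 and 0.726 in OFF24, and 0.487, 0.577 and 0.535 in OFF48.

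That ratio was lower in every OFF library than in any ON library. The same held for Tomm40 to Tomm40l (1.56 to 1.97 in ON, 0.786 to 1.2 in OFF24, 0.962 to 1.05 in OFF48), for Timm8a1 to Timm8b (0.565 to 0.785, 0.25 to 0.319, 0.218 to 0.276) and for Tomm20 to Tomm70a (1.46 to 1.69, 0.989 to 1.05, 0.671 to 0.88). It did not hold for Phb to Phb2, which overlapped ON in both OFF groups (0.148 to 0.173 in ON, 0.112 to 0.182 in OFF24, 0.0827 to 0.178 in OFF48), nor at 48 h for Pmpca to Pmpcb. The other pairs compared, Hspd1 to Hspe1, Timm10 to Timm10b, Afg3l2 to Spg7 and Timm23 to Timm22, were also lower in every OFF library. These pairs were chosen after their values were seen, so the ratios are a description with no test. A ratio of counts of different genes also depends on how well each 3' end is captured and mapped, and is to be read across libraries only.

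**Figure D3:**
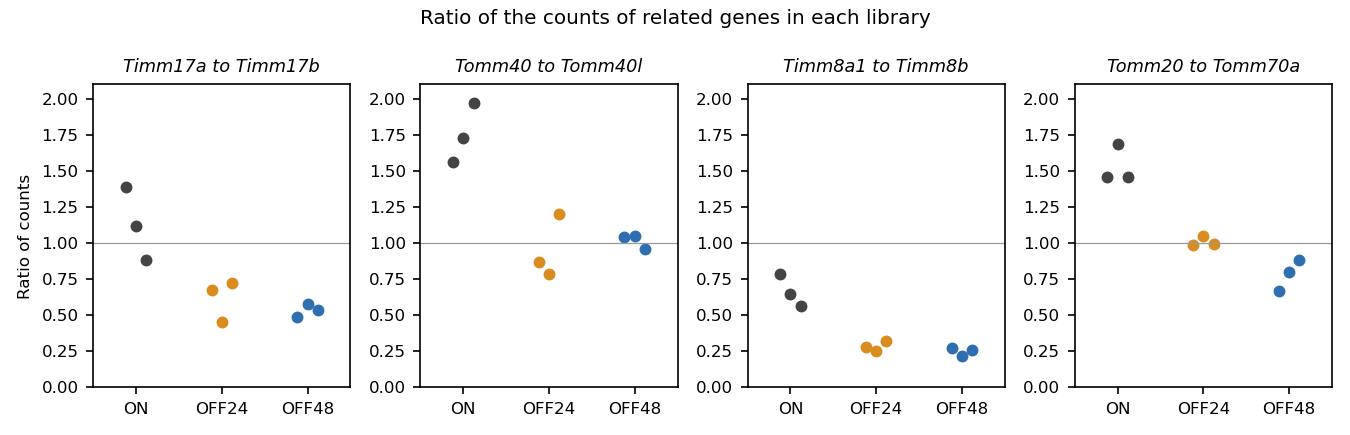
Ratio of the counts of related genes (y axis) in each of the 9 libraries (points). In the 4 pairs drawn, which leave out Phb to Phb2 and Pmpca to Pmpcb, whose ratios overlapped ON in 1 or both OFF groups, the OFF libraries lie below the ON libraries, for Timm17a to Timm17b at 0.453 to 0.726 in OFF24 against 0.886 to 1.39 in ON.

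Among the TIM22 translocase and the small TIM chaperones, 6 of 8 fell at each time, where 17.4% and 23.9% of all tested genes did. Between the times 0 of the 8 fell, against 11.2% of all tested genes, which for a group of this size shows nothing about it. Timm8a1 (chromosome X, 134537256 to 134541865, minus strand), whose human counterpart is mutated in a deafness and dystonia syndrome, stood at 119, 105 and 94.5 CPM in ON, 36.8, 33 and 47.4 in OFF24, and 36.9, 21.7 and 30.6 in OFF48. Both OFF groups lay below ON and overlapped each other (log2 -1.44 ± 0.15 and -1.78 ± 0.16, edgeR adjusted p = 8.96e-07 and 4.04e-08; between, -0.34 ± 0.18, adjusted p = 0.19). Its partner Timm13 stood at 112, 98.5 and 116, then 81.1, 76.9 and 77.4, then 61.1, 60.7 and 69.1 CPM, and fell less (-0.47 ± 0.11 and -0.76 ± 0.11, edgeR adjusted p = 0.00244 and 1.8e-05). Between the times Timm13 did not pass (-0.29, edgeR adjusted p = 0.0848), but did with the replicate block (-0.30, adjusted p = 0.0468), as also with upper quartile scaling and in the deposited log2 table. Whether the falls of these partners differ was not tested.

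Timm10 and Timm9 together form the chaperone that carries hydrophobic proteins across the intermembrane space. Timm10 (chromosome 2, 84826997 to 84830213, plus strand) stood at 16.3, 16.2 and 21.5 CPM in ON, 7.11, 6.59 and 4.47 in OFF24, and 8.39, 13.5 and 6.71 in OFF48. Its OFF groups lay below ON, and it had the lowest log2 fold change of the tested members at 24 h (-1.57 ± 0.26, edgeR adjusted p = 9.98e-05), with -1.03 ± 0.25 at 48 h (adjusted p = 0.00206), though on only 15 to 66 counts per library. Timm9 (chromosome 12, 71123173 to 71136684, minus strand) fell by 1.18 ± 0.19 and 1.23 ± 0.20 on the log2 scale (edgeR adjusted p = 0.000156 and 6.91e-05).

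Timm10b, which docks that chaperone to TIM22, was the tested member with the highest log2 fold change against ON at 48 h. Its levels were 88.5, 95.3 and 89.1 CPM in ON, 87.8, 109 and 108 in OFF24, and 99.6, 114 and 111 in OFF48, so OFF48 lay above ON without passing the test (log2 0.24 ± 0.11, edgeR adjusted p = 0.0893; 0.0479 with the replicate block). Timm29, a TIM22 subunit known from human cells, stood at 26.3, 35.1 and 33.6, then 19.2, 18.2 and 20.9, then 31.5, 24.7 and 28.3 CPM. It fell at 24 h (-0.70 ± 0.16, edgeR adjusted p = 0.00254), overlapped ON at 48 h (-0.14 ± 0.16, adjusted p = 0.496) and rose between (0.56 ± 0.17, adjusted p = 0.0253). The rise was lost without OFF24 replicate 1 or 2 or OFF48 replicate 1 or 3 (edgeR adjusted p = 0.0504 to 0.0983), and under DESeq2 (adjusted p = 0.0675).

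Of the other members of this group, Timm22, the channel, fell by 0.44 and 0.53 on the log2 scale. The first call was lost without any of the ON or OFF24 libraries (edgeR adjusted p = 0.0503 to 0.167) and the second without ON replicate 1 or OFF48 replicate 3 (0.0502 to 0.145). Both were also lost under DESeq2 and with counts thinned to the shallowest library, and the first under upper quartile scaling and in the deposited log2 table. Timm8b fell at 48 h only (-0.43; -0.22 at 24 h).

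All 5 folding chaperones fell at both times, against 17.4% and 23.9% of all tested genes. Hspd1 (chromosome 1, 55077835 to 55088243, minus strand) encodes Hsp60, the barrel of the chaperonin, and stood at 687, 652 and 709 CPM in ON, 236, 241 and 274 in OFF24, and 195, 163 and 136 in OFF48. No libraries of different groups overlapped. It had the lowest log2 fold change of the tested members at 48 h (-2.05 ± 0.12, edgeR adjusted p = 1.38e-10), after -1.45 ± 0.12 at 24 h (adjusted p = 3.78e-08) and -0.61 ± 0.12 between (adjusted p = 0.0013). Hspe1 (chromosome 1, 55088132 to 55091307, plus strand) encodes Hsp10, the lid, and stood at 224, 184 and 234 CPM, then 156, 129 and 148, then 78.5, 56.2 and 72.3. Its groups were also separate, but on the log2 scale the estimate of its fall was larger after 24 h than before. Values were -0.57 ± 0.12, -1.60 ± 0.13 and, between, -1.03 ± 0.13 (edgeR adjusted p = 0.00133, 9.42e-09 and 1.39e-05). Whether these steps differ was not tested, and they share the OFF24 libraries. Mean levels were 214, 144 and 69 CPM.

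The 2 chaperonin genes thus kept no fixed ratio. Counts of Hspd1 to Hspe1 stood at 3.06, 3.54 and 3.04 in ON, 1.52, 1.87 and 1.85 in OFF24, and 2.48, 2.91 and 1.88 in OFF48, lower in every OFF library than in ON. This pair too was looked at after the values were seen, and has no test.

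Trap1, a mitochondrial Hsp90, stood at 49.2, 50.6 and 49.4 CPM in ON, 31.4, 41.4 and 40.5 in OFF24, and 30.2, 24 and 22.7 in OFF48. Each group lay below the one before, with log2 -0.39 ± 0.14, -0.95 ± 0.15 and, between, -0.56 ± 0.16 (edgeR adjusted p = 0.0368, 3.96e-05 and 0.0148). The 24 h call was lost without any ON library or OFF24 replicate 1 or 3 (adjusted p = 0.0517 to 0.145), and the last without OFF24 replicate 2 or 3 or OFF48 replicate 3 (0.0831 to 0.109). With all libraries kept, the 24 h call was also lost under DESeq2, upper quartile scaling, thinning to the shallowest library and in the deposited log2 table. Dnaja3, an Hsp40 co-chaperone of Hspa9, fell by 0.76 and 1.11 on the log2 scale. Clpb, which in human cells dissolves aggregates in the intermembrane space and not in the matrix, fell by 0.77 and 1.04.

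**Figure D4:**
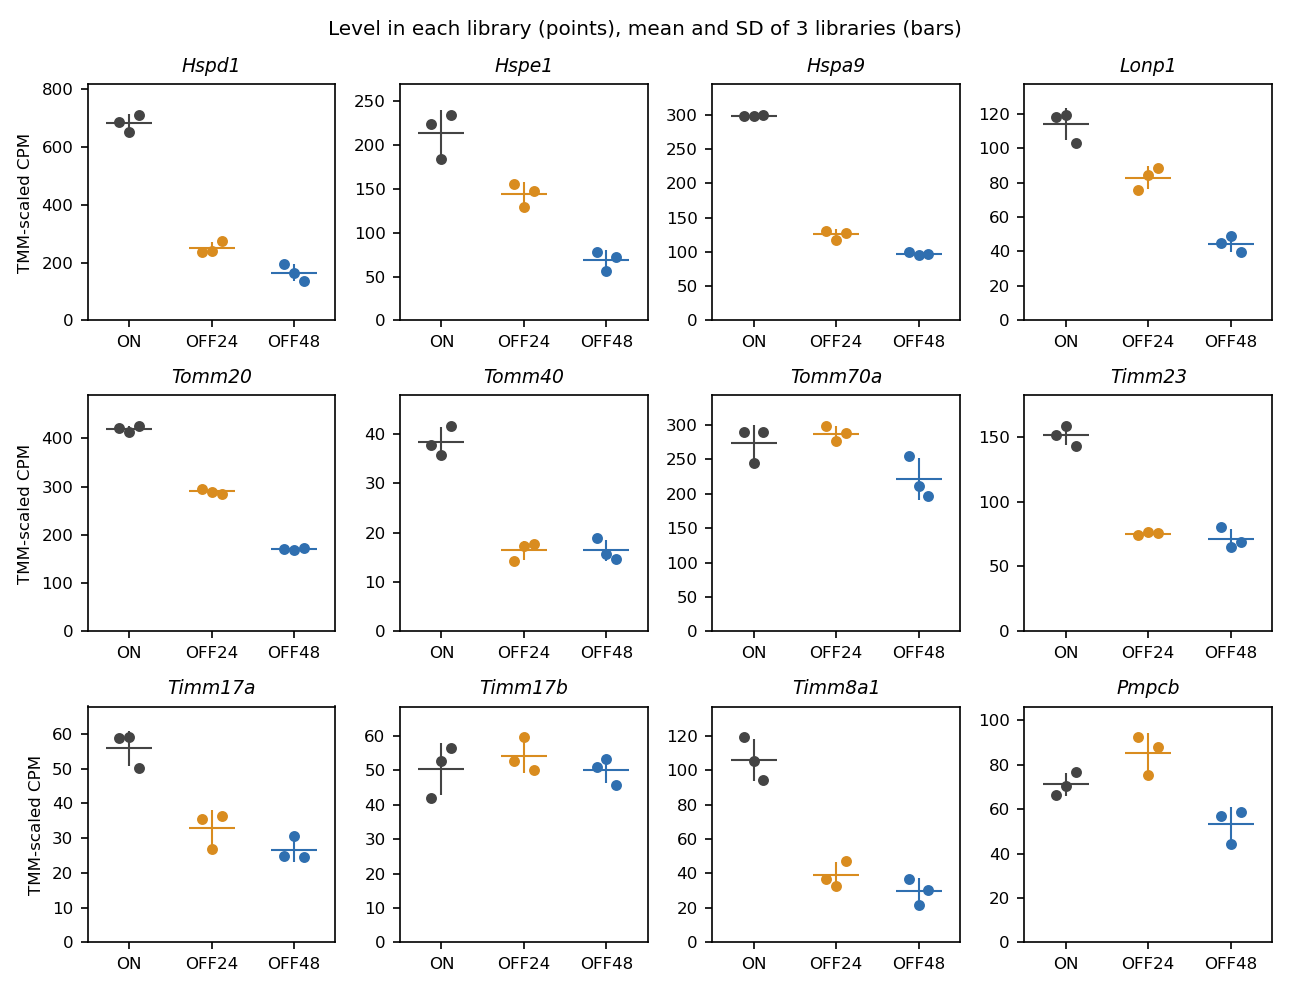
TMM-scaled CPM (y axis, from 0) of 12 genes in each library (points), with the mean (horizontal bar) and SD (vertical bar) of 3 libraries per group. Hspd1, Hspa9, Tomm20 and Lonp1 stand apart in all 3 groups, Tomm40 and Timm23 are low from 24 h on, Timm17b overlaps in all groups, and Pmpcb and Tomm70a are lower at 48 h than at 24 h.

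Of the matrix proteases, Lonp1 (chromosome 17, 56614297 to 56626887, minus strand), which degrades oxidised and misfolded proteins, stood at 118, 119 and 103 CPM in ON, 75.7, 84.1 and 88.5 in OFF24, and 45, 48.7 and 39.7 in OFF48. The groups were separate, and on the log2 scale the estimate of the fall was larger after 24 h than before. Values were -0.46 ± 0.11, -1.38 ± 0.12 and, between, -0.92 ± 0.13 (edgeR adjusted p = 0.00399, 3.09e-08 and 2.99e-05). For Lonp1 too, whether the steps differ was not tested. Its mean levels were 114, 82.8 and 44.5 CPM. Clpp, the peptidase of the ClpXP protease, stood at 29.6, 29.2 and 27.6, then 13.8, 22.9 and 17.3, then 14.8, 13.5 and 16.6 CPM. It fell at both times (-0.66 ± 0.17 and -0.92 ± 0.19, edgeR adjusted p = 0.00614 and 0.000443), and its OFF groups overlapped.

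Clpx, the unfoldase that feeds Clpp, stood at 14.3, 9.58 and 10.7 CPM in ON, 9.2, 11.3 and 11 in OFF24, and 7.38, 9.75 and 7 in OFF48. Its groups overlapped and it was not called (log2 -0.13 ± 0.22 and -0.59 ± 0.24, edgeR adjusted p = 0.691 and 0.0557), although the 48 h fall passed without ON replicate 2 (adjusted p = 0.0291) or OFF48 replicate 2 (0.04).

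Among the proteases of the inner membrane, Afg3l2 stood at 85.4, 84.5 and 77.3 CPM in ON, 62.3, 62.8 and 57.8 in OFF24, and 35.9, 37.5 and 40.2 in OFF48. It fell at each step (log2 -0.44 ± 0.11, -1.12 ± 0.12 and, between, -0.68 ± 0.12; edgeR adjusted p = 0.00426, 2.84e-07 and 0.000554). Spg7, its partner in the mixed m-AAA protease, stood at 21.7, 26.5 and 21.5, then 20.5, 23.5 and 19.4, then 23.5, 20.2 and 24.2 CPM, with full overlap (-0.14 ± 0.16 and -0.02 ± 0.16, edgeR adjusted p = 0.524 and 0.94). The count ratio of Afg3l2 to Spg7 was accordingly 3.19 to 3.94 in ON, 2.67 to 3.04 in OFF24 and 1.53 to 1.85 in OFF48, again a pair chosen after its values were seen.

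Yme1l1, the i-AAA protease that faces the intermembrane space, stood at 75.8, 80.3 and 73.4 CPM in ON, 65.2, 65.3 and 62.9 in OFF24, and 52.3, 57 and 51.9 in OFF48. All 3 groups were separate, but only the 48 h fall passed the test (log2 -0.52 ± 0.11, edgeR adjusted p = 0.000752; at 24 h -0.25 ± 0.11, adjusted p = 0.0778).

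The subunits of the processing peptidase that removes presequences took different courses at 24 h. Pmpca, the alpha subunit, stood at 50, 55.8 and 54.4 CPM in ON, 38.5, 38.3 and 40.2 in OFF24, and 32.2, 36 and 27.1 in OFF48, each group below the one before. It fell at both times (log2 -0.45 ± 0.13 and -0.78 ± 0.14, edgeR adjusted p = 0.00956 and 9.44e-05). Pmpcb, the catalytic beta subunit, stood at 66.6, 70.5 and 76.6, then 92.4, 75.6 and 88.2, then 57, 44.2 and 58.6 CPM. Its highest libraries were at 24 h, where it was not called (0.26 ± 0.12, edgeR adjusted p = 0.102), and it then fell by 0.65 ± 0.13 from 24 to 48 h (adjusted p = 0.0013).

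Against ON, Pmpcb fell at 48 h (log2 -0.38 ± 0.13, edgeR adjusted p = 0.0198), a call lost without ON replicate 3 or OFF48 replicate 2 (0.0673 to 0.0696). With all libraries thinned to the depth of the shallowest, an alternative chosen after the data were seen, Pmpcb was higher at 24 h (log2 0.44, edgeR adjusted p = 0.0355) and not called at 48 h (-0.18, adjusted p = 0.395). Counts of Pmpca to Pmpcb were 0.71 to 0.791 in ON and 0.416 to 0.506 in OFF24, and spread from 0.463 to 0.814 in OFF48, which overlaps ON.

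The prohibitins form a ring in the inner membrane that holds the m-AAA protease, and both fell at both times. Phb2 stood at 271, 277 and 277 CPM in ON, 202, 181 and 197 in OFF24, and 151, 190.5 and 144 in OFF48. OFF libraries lay below ON and overlapped each other through OFF48 replicate 2 (log2 -0.51 ± 0.11 and -0.78 ± 0.11, edgeR adjusted p = 0.00117 and 9.51e-06), and without that library Phb2 also fell between the times (-0.37, adjusted p = 0.0174), as it did with the replicate block (-0.28, adjusted p = 0.0456). Phb stood at 46.9, 41 and 47.2, then 22.6, 33 and 32.2, then 22.5, 15.7 and 25.7 CPM. It fell by 0.60 ± 0.16 and 1.01 ± 0.17 on the log2 scale (edgeR adjusted p = 0.00668 and 8.36e-05), and its row has the same counts as that of 1700071K01Rik, so these were not separated.

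The pattern of Hspd1 over the 9 libraries was closest, as a Pearson correlation of log2 CPM, to that of Nsun2 (0.997), Lilr4b (0.995), Acaca, Sfxn1 and Nme1 (0.993 each). Within the machinery the nearest were Hspa9 (0.985), Timm23 (0.963) and Timm8a1 (0.962), and the farthest were Timm17b (-0.053) and Timm10b (-0.719). The 9 points share libraries and fall into 3 groups, so these values are a description only.

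Reads of a 3' end can be shared with other copies. The last 400 bases of 9 tested members matched another annotated gene at 95% identity or more over at least 75 bases, and those of Timm23 and Tomm20 matched 6 each. Of those 9, 8 fell at each time. A further 8 lie across from, and overlap, an exon of another gene, and of these 5 fell at 24 h and 7 at 48 h. Of the 23 with neither, 13 fell at 24 h and 16 at 48 h, and none rose. Over all tested genes 17.4% and 23.9% fell, and 17.8% and 23.4% rose. How reads that map several times were handled is not given in the sources used here, which leaves levels of the first 9 uncertain. The strand setting of the counting is not given either. That leaves levels of the further 8 uncertain, and that of Tomm6 among the first 9, which also overlaps an exon on the other strand.

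**Figure D5:**
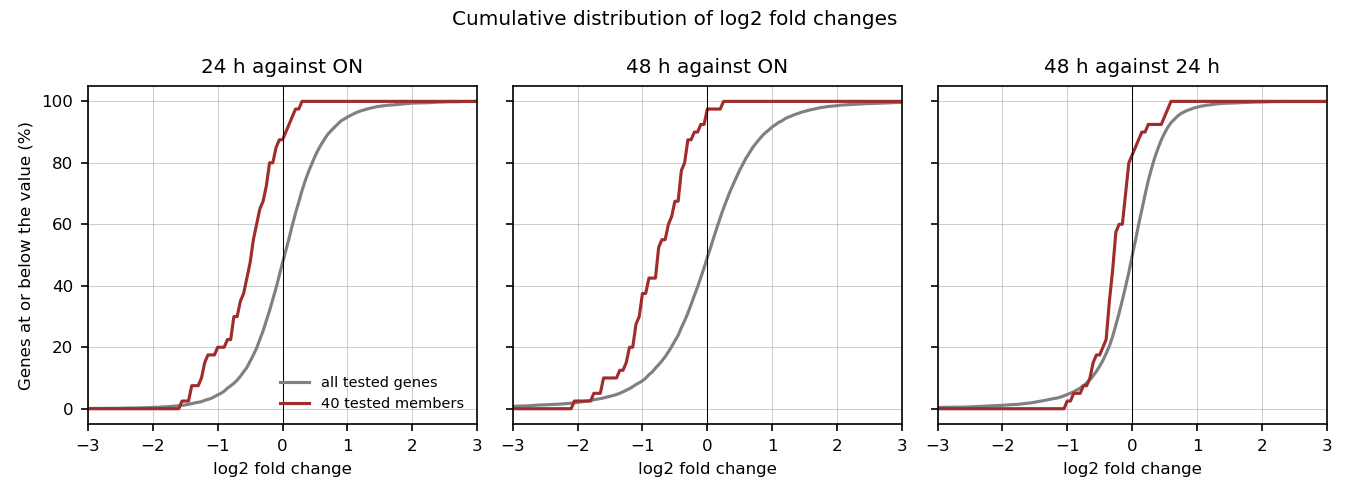
Share of genes (y axis, %) with a log2 fold change at or below the value on the x axis, for the 40 tested members (red) and all 10215 tested genes (grey). Over most of the range the members lie to the left, with medians of -0.46 at 24 h, -0.77 at 48 h and -0.27 between, against 0.03, 0.01 and 0.00 for all tested genes.

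Other genes of mitochondrial import and protein quality control, outside the symbol rule, were listed for comparison, and 37 of 42 were tested. At 24 h 17 fell and 3 rose, at 48 h 20 fell and 2 rose, and 5 fell and 0 rose between, with medians of -0.36, -0.43 and -0.20. Over all tested genes 17.4%, 23.9% and 11.2% fell and 17.8%, 23.4% and 9.99% rose, so the 5 falls between the times are near the background. Chchd4, the receptor of the oxidative import route that folds the small TIM proteins, stood at 94.1, 77.4 and 106 CPM in ON, 42.6, 42.1 and 46.8 in OFF24, and 42.3, 32.2 and 38.2 in OFF48. Both OFF groups were below ON (log2 -1.07 ± 0.13 and -1.27 ± 0.14, edgeR adjusted p = 5.79e-06 and 4.8e-07). Falls of Dnaja2, a cytosolic Hsp40, were -0.65 and -0.84, of Parl, a rhomboid protease, -0.80 and -0.53, and of Cox18, an inner-membrane insertase, -1.37 and -1.15.

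Chchd6, a subunit of the complex that shapes cristae, was the lowest of this list at 48 h. Its levels were 8.16, 8.35 and 9.66 CPM in ON, 5.02, 5.96 and 5.06 in OFF24, and 1.01, 1.5 and 1.46 in OFF48, so all groups were separate at low counts. Log2 fold changes were -0.69 at 24 h (edgeR adjusted p = 0.046, lost without any of the ON or OFF24 libraries, 0.069 to 0.126), -2.71 ± 0.36 at 48 h (adjusted p = 5.42e-06) and -2.02 ± 0.40 between (adjusted p = 0.00124). The 24 h call was also lost under DESeq2, upper quartile scaling, no filter, thinning and in the deposited log2 table. The level in OFF48 is near or under that of 3 counts.

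The rises in this list were of Hscb, an iron-sulphur co-chaperone (log2 0.84 at 24 h), Mtch1, an outer-membrane insertase in human cells (0.37 at 24 h), Immp1l, an inner-membrane peptidase (0.50 and 0.56), and Oma1, a stress-activated protease (0.48 at 48 h). The call of Oma1 was lost without ON replicate 1 or 2 or OFF48 replicate 1 or 3 (edgeR adjusted p = 0.06 to 0.168), that of Mtch1 without OFF24 replicate 3 (0.0696), and that of Immp1l at 24 h without OFF24 replicate 2 (0.051). The Oma1 call was also lost under DESeq2, no filter, only the groups compared, thinning and in the deposited log2 table. Thinning also ended the calls of Hscb and, at both times, of Immp1l. Mtch2, a relative of Mtch1, fell at 24 h (-0.43, lost without ON replicate 3 or OFF24 replicate 2 or 3, edgeR adjusted p = 0.0606 to 0.0864) and at 48 h (-0.87).

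Regulators of the mitochondrial stress response were also followed, with 13 of 16 listed genes tested. At 24 h 6 fell and 0 rose, at 48 h 5 fell and 3 rose, and 0 fell and 2 rose between. The rises at 48 h were of Nrf1 (log2 0.48), Eif2ak1 (0.61) and Oma1 (0.48), which is also in the previous list. Those between were of Atf5 and Nrf1 (0.48, edgeR adjusted p = 0.0497). Besides the genes detailed below, Pprc1 fell at both times and Hsf1 at 24 h. Cebpb, Gabpa, Gabpb1 and Esrra were not called in any comparison. The all-gene shares are as for the previous list (17.4%, 23.9% and 11.2% fell; 17.8%, 23.4% and 9.99% rose), and the rises at 48 h are near theirs. Atf5, a transcription factor that drives mitochondrial chaperone genes under stress, stood at 91.6, 119.9 and 94.8 CPM in ON, 25.5, 33.3 and 29.8 in OFF24, and 60.1, 90 and 53.4 in OFF48. It was lowest at 24 h and partly back at 48 h, still below ON (log2 -1.78 ± 0.17, -0.65 ± 0.16 and, between, 1.13 ± 0.18; edgeR adjusted p = 5.02e-07, 0.003 and 0.000251). Over that same interval 11 of the 40 tested import genes fell, 2 rose and 27 were not called, beside the all-gene shares just given.

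Atf4, the factor of the integrated stress response, fell by 1.44 and 1.20 on the log2 scale with 0.23 between (edgeR adjusted p = 0.265). Ddit3, which encodes CHOP, fell by 0.77 and 0.92. Myc stood at 23, 26.3 and 19 CPM in ON, 7.94, 9.73 and 8.04 in OFF24, and 4.03, 8.25 and 8.16 in OFF48, and fell at both times (log2 -1.41 and -1.79, edgeR adjusted p = 7.8e-05 and 6.79e-06). What part these factors have in the levels of the import genes was not tested.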

How the data were processed

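Per the labels' protocols, RNA was extracted in TriZol, treated with DNase and made into libraries with the Lexogen QuantSeq 3'-mRNA kit. The submitters' processing notes list HISAT2 2.0.4 and featureCounts (Subread 1.5.0-p3) beside cutadapt 1.5, FastQC 0.11.2, bcl2fastq 2.17.1.14, limma 3.42.2, R 3.6.1 and the mm10 build, with no roles. How reads were annotated, assigned by strand and handled where they mapped several times is not given in the sources used here. Deposited by the authors were raw counts, whole numbers for each gene symbol and library. A second deposited table of log2 values, normalised with voom and limma per its name, has 10552 rows and served only as an alternative.

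The test was that of edgeR 4.0.16 under R 4.3.3 (filterByExpr, TMM scaling, robust quasi-likelihood fit of 1 mean per group over all 9 libraries, 6 residual degrees of freedom). P-values were adjusted by Benjamini-Hochberg over all 10215 tested genes at a threshold of 0.05. SE is the log2 fold change divided by the square root of the F statistic, and levels are TMM-scaled CPM. "Fell" and "rose" refer to genes past the threshold. The fit was tested on simulated counts with a constant spread, changed only in OFF24 and only in genes above a cut-off of level. It called 98% of genes with a true log2 of -1 and 0.0813% of unchanged genes. That simulation cannot speak for changes of genes with low counts, for the comparison of the OFF groups or for a replicate structure. Alternatives were other scalings, no filter, DESeq2 1.42.0, limma 3.58.1, only the groups compared, a replicate block, each library left out, and counts thinned to 1329296 per library.

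The members and gene lists were chosen with earlier results of these data known. Levels in every library are given for the 3 tested members of each role with the smallest p, for 9 members listed whatever their result, and, chosen after their values were seen, for Tomm70a, Timm29, Timm10b and, as described, Chchd4, Chchd6, Atf5 and Myc. Of other pathway genes up to 4 per direction and comparison with the smallest adjusted p are named. The labels give replicate numbers no meaning, so they were not taken as pairs; same-numbered ON and OFF48 libraries did correlate above 0.1 in their deviations from the group means (0.115, 0.406 and 0.198), the other same-numbered ones not throughout. The value of 1 lymphoid marker is not reported here. Shared 3' ends were searched with blastn 2.17.0 against GENCODE M21 transcripts.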

Additional observations from a re-analysis of the deposited data

Results flagged for a closer look

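These genes differed between 24 h and 48 h by the direct test of the OFF groups (edgeR quasi-likelihood test, Benjamini-Hochberg adjustment). On the log2 scale, OFF48 against OFF24, the folding chaperones stood at -1.03 for Hspe1, -0.61 for Hspd1 and -0.56 for Trap1, and the motor protein Hspa9 at -0.36. Among the proteases Lonp1 was at -0.92 and Afg3l2 at -0.68, and the peptidase subunit Pmpcb at -0.65. In the outer membrane, Tomm20 was at -0.76, Tomm6 at -0.40, Tomm70a at -0.38, Tomm7 at -0.32 and Tomm5 at 0.46. Timm29 was at 0.56. Outside the symbol rule, Chchd6 was at -2.02, Pam16 at -0.66, Mtch2 at -0.44, Ghitm at -0.37 and Atf5 at 1.13. The calls of Hspe1, Hspd1, Lonp1, Afg3l2, Pmpcb and Tomm20 between the times were kept under each of the 19 alternatives. Those of Hspa9, Trap1, Tomm5, Tomm6, Tomm7, Tomm70a and Timm29 were each lost without at least 1 library, as was that of Ghitm without ON replicate 1, any OFF24 library, or OFF48 replicate 2 or 3 (edgeR adjusted p = 0.0581 to 0.167) and that of Mtch2 without any OFF24 library or OFF48 replicate 2 or 3 (0.0612 to 0.151).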

How the results depend on the processing

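Over 19 alternatives no result changed direction with a call. The members fallen numbered 26 at 24 h (19 to 27, with a library left out 24 to 27), 31 at 48 h (28 to 34; 29 to 34) and 11 between (6 to 14; 6 to 11). With the replicate block the counts were 27, 32 and 14, and the rises at 48 h went from 0 to 1 (Timm10b). The block ended no member's call. Same-numbered libraries correlated at -0.0149 to 0.406 (others at -0.286 to 0.19), over 0.1 in every pair only for ON with OFF48, so a pairing was neither assumed nor excluded. The 2 rises between the times were 1 under upper quartile scaling, limma-voom, only the groups compared and the deposited log2 table, 0 under DESeq2, and 0 to 2 with a library left out. Thinning gave 1 rise at 24 h (Pmpcb), 19 falls there and 1170 rises over all genes in place of 1822. It ended the 24 h calls of Afg3l2, Clpp, Dnaja3, Grpel1, Pmpca, Timm22 and Trap1 and the 48 h calls of Pmpcb, Timm22 and Tomm22. Thinning keeps fewer counts by construction. Falls over all genes under these alternatives are not given here, so whether members lost calls more than other genes did is not shown. For the other settings the cause was not tested. Calls kept in every alternative numbered 19 of 26, 27 of 31 and 6 of 13.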
